A study of Rattus norvegicus with 6 samples.

Results

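Ptprc, Coro1a, Cd52, Laptm5, Lcp1 and Rac2 are genes that white blood cells of most kinds express and that hormone cells of the pancreas are not known for. They are described here in islets of fetal rats (strain Sprague Dawley, gestational day 22). All 6 of these genes were found among the 17321 genes counted. They were chosen by a list of names drawn up with the differences between the glucose-infused and control libraries already known. Their differences between the groups are therefore given as descriptions. Where outcomes of the fits over all genes are given for them, nothing is read from those outcomes.

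The libraries formed 3 pairs, each from 1 dam, with 1 library labelled high glucose and 1 labelled control in each pair. The left horn of the uterus was infused with glucose for 48 h, at a rate of 4 mg/min, starting on day 20. The right horn of the same dam, with normoglycemic fetuses, gave the controls. Whether the control horn was infused with vehicle is not given in the sources used here. Each library held islets of 2 pooled pancreata, isolated with collagenase, picked by hand and cultured for 24 h in RPMI with 5 mM glucose. No allele, transgene or strain differed between the groups. Horn side went with treatment in every pair, so the effects of side and glucose cannot be told apart. The horn letter in the name of the deposited file was opposite to that in the sample title in 6 of 6 libraries. Groups follow the treatment labels, and every direction below would reverse if the file names were right.

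Leukocytes enter the fetal pancreas from the blood, and macrophages are the best known leukocytes of the islet. Ptprc encodes CD45, a transmembrane tyrosine phosphatase that sets the activity of Src-family kinases below antigen receptors. Cd52 encodes a very short glycopeptide held to the outer membrane by a lipid anchor. Laptm5 encodes a lysosomal membrane protein that promotes breakdown of antigen receptors. Coro1a (coronin 1A) and Lcp1 (L-plastin) bind and organise actin filaments beneath the membrane. Rac2 is a small GTPase that drives actin remodelling and switches on the NADPH oxidase of phagocytes.

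In the deposited counts, which use the rn6 genome, the 6 genes lay on 5 chromosomes. Ptprc spanned 55061561 to 55173707 on the minus strand of chromosome 13, with 33 separate exonic blocks after overlapping exons of its transcripts were merged. Coro1a spanned 198123883 to 198128857 on chromosome 1 (minus strand, 11 blocks). Cd52 and Laptm5 lay on chromosome 5, at 152322911 to 152324469 (minus strand, 2 blocks) and 149047681 to 149069719 (plus strand, 8 blocks). Lcp1 spanned 57221292 to 57277809 on chromosome 15 (plus strand, 16 blocks) and Rac2 119783878 to 119797068 on chromosome 7 (minus strand, 7 blocks). Exonic lengths ran from 534 bases for Cd52 to 5066 bases for Ptprc. Counting was per gene, so the alternative exons of Ptprc that distinguish CD45 isoforms were summed.

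The sequence before the start of the gene is shown, as a description only, for the 4 of 6 genes that matched the RefSeq promoter table (GRCr8 assembly). Each is the 250 bases before the start, 5′ to 3′ on the strand of the gene, at chr13:52259747-52259996 (minus) for Ptprc, chr5:148371630-148371879 (plus) for Laptm5, chr1:190731104-190731353 (minus) for Coro1a and chr5:151605097-151605346 (minus) for Cd52. Capitals mark every match to 6 short motifs on either strand. GAGGAA is the core bound by PU.1, a master factor of myeloid and B cells, and GGAAGT is a core of the wider ETS family. TGTGGT is the core for RUNX factors. AGATAA is the core for the GATA family of blood factors. A general promoter element, TATAAA, and the GC box, GGGCGG, were also searched.
Ptprc: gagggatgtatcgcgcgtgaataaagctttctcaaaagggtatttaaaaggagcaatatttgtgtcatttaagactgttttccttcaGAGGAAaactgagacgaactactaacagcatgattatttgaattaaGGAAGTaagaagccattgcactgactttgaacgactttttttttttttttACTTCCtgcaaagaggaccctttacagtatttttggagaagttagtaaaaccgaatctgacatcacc
Laptm5: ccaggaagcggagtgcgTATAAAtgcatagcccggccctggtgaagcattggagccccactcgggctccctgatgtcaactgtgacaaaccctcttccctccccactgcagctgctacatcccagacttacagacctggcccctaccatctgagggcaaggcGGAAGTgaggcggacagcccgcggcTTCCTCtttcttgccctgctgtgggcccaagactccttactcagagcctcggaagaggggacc
Coro1a: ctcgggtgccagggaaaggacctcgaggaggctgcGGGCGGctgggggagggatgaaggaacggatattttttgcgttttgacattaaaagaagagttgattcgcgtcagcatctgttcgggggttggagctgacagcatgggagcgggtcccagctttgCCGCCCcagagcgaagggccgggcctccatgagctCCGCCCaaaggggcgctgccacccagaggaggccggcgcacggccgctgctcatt
Cd52: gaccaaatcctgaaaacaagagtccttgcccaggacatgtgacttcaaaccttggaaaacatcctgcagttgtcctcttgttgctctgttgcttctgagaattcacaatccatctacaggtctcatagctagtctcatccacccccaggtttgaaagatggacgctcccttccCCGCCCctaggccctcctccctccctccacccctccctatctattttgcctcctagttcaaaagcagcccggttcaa

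GAGGAA or its reverse complement TTCCTC occurred in Ptprc, 163 bases before the start, and in Laptm5, 63 bases before it. This motif was in 23.2% of 27456 promoters of the same length, and in 23.1% of the 9502 among them that belong to tested genes. GGAAGT or ACTTCC occurred at 117 and 67 bases before the start in Ptprc and at 88 bases in Laptm5, and in 19.5% of all promoters and 24.2% of those of tested genes. Coro1a held 3 GC boxes and Cd52 1, and 32.4% of all promoters and 57.9% of those of tested genes held at least one. TATAAA was found in Laptm5, 233 bases before the start, and in 13.1% of all promoters and 6.87% of those of tested genes. TGTGGT (14.1% and 10.7%) and AGATAA (10.1% and 5.68%) were found in none of the 4 windows. The GAGGAA and GGAAGT matches did not overlap each other in these windows. The promoters also differed in base composition, from 36% G and C in Ptprc to 63.2% in Coro1a, with a median of 52.0% over all promoters. A match describes letters and does not show a bound factor.

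The libraries held from 18077841 to 30993532 counts, and the control library of pair 2 was the shallowest. Levels are given as CPM, counts scaled to the TMM-adjusted size of the library, and, to compare genes with each other, as FPKM, which is CPM per kilobase of exon. All 6 genes passed the filter on low counts, which kept 12276 genes. Ins1, Ins2 and Gcg, which define beta and alpha cells, were present at mean levels of 15605, 13476 and 2779 FPKM, so endocrine RNA was abundant in these libraries. Collagen RNA of connective tissue was also abundant, with Col3a1 at a mean of 2560 FPKM.

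Per length, Lcp1 and Rac2 had the highest levels of the 6 genes and Ptprc the lowest. Mean levels over the 6 libraries were 46.2 FPKM for Lcp1, 44.2 for Rac2, 29.2 for Laptm5, 23.3 for Coro1a, 8.77 for Cd52 and 4.88 for Ptprc. The order did not hold in every library for any neighbouring genes. Lcp1 exceeded Rac2 in 4 of 6 libraries, Rac2 exceeded Laptm5 in 4 of 6, Laptm5 exceeded Coro1a in 4 of 6 and Coro1a exceeded Cd52 in 5 of 6. Cd52 exceeded Ptprc in only 2 of 6, both from pair 2, so their order by mean rests on that pair. Against all tested genes, Lcp1 lay between the 72nd and 89th percentile and Ptprc between the 16th and 51st.

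Ptprc, the phosphatase that defines leukocytes, was lower in high glucose in each of the 3 pairs, by very different amounts. Control libraries of pairs 1, 2 and 3 measured 64.0, 12.4 and 22.2 CPM (2209, 201 and 652 counts), and high glucose libraries 32.4, 9.62 and 7.54 CPM (1030, 197 and 242 counts). Dam pair 1 was high in both horns, and its high glucose library exceeded the control libraries of the other pairs, so the groups overlapped. The log2 difference was -0.98, -0.37 and -1.55 in pairs 1 to 3. In pair 2 the ratio of high glucose to control was 0.774, with a 95% counting interval of 0.632 to 0.946. Such intervals cover counting error only. The fitted log2 difference over all pairs was -0.98 (SE 0.26). In bulk RNA such as this, fewer leukocytes and less RNA per leukocyte cannot be told apart.

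Cd52, the short surface glycopeptide, had the largest differences of the 6 genes and the fewest counts. Control libraries held 5.13, 18.3 and 1.81 CPM (177, 296 and 53 counts), and high glucose libraries 0.409, 1.86 and 0.592 CPM (13, 38 and 19 counts). Each high glucose library was below the control of its own dam. The highest high glucose library, that of pair 2, was just above the lowest control, that of pair 3, so the groups overlapped. High glucose stood at 7.97% of control in pair 1 (95% counting interval of the ratio 0.0416 to 0.140), 10.1% in pair 2 (0.0703 to 0.142) and 32.7% in pair 3 (0.183 to 0.562). The fitted log2 difference was -2.87 (SE 0.48), a level 7.33-fold lower.

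Laptm5, the lysosomal protein, varied least of the 6 among the control libraries. Control libraries measured 85.4, 61.9 and 84.3 CPM and high glucose libraries 55.0, 45.3 and 30.8 CPM. Every high glucose library was below every control library. The largest drop was in pair 3, where high glucose stood at 36.5% of control, against 64.4% in pair 1 and 73.3% in pair 2. The fitted log2 difference was -0.84 (SE 0.23).

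Of the actin-binding pair, Coro1a differed more than Lcp1. Coro1a measured 68.9, 53.2 and 33.7 CPM in control and 22.1, 33.3 and 12.1 CPM in high glucose. The groups did not overlap, although the high glucose library of pair 2 (33.3 CPM) and the control of pair 3 (33.7 CPM) were almost level. The log2 differences were -1.64, -0.68 and -1.48 in pairs 1 to 3, and the fitted difference was -1.27 (SE 0.24).

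Lcp1, the most abundant of the 6 by CPM, was the exception to the common direction. It measured 225, 101 and 222 CPM in control and 183, 101 and 112 CPM in high glucose. In pair 2 the 2 horns were level, with a ratio of 1.002 (95% counting interval 0.939 to 1.07). High glucose was lower in pairs 1 and 3, at log2 differences of -0.30 and -0.99, and the groups overlapped. The fitted log2 difference was -0.43 (SE 0.22), and -0.15 when pair 3 was left out.

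Rac2, the GTPase, measured 83.0, 84.7 and 47.0 CPM in control and 43.4, 70.5 and 16.8 CPM in high glucose. It was lower in high glucose in every pair, at log2 differences of -0.93, -0.27 and -1.48. The high glucose library of pair 2 exceeded the control of pair 3, so the groups overlapped. The fitted log2 difference was -0.89 (SE 0.24).

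**Figure D1:**
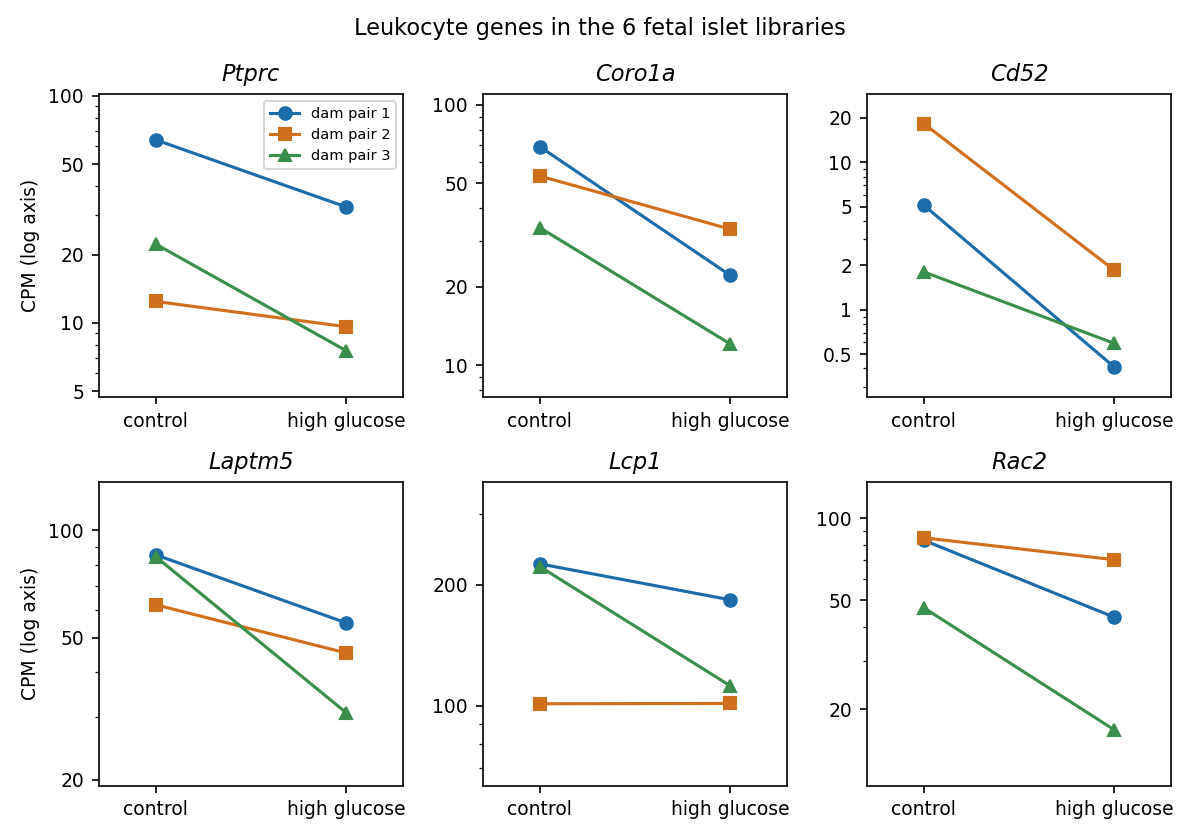
Level of each leukocyte gene in CPM (vertical log axis) in the control and high glucose library of each dam, with a line joining the libraries of 1 dam. All lines slope down except that of Lcp1 in pair 2, which is level at 101 CPM.

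Pair 3 had the largest drop in most of these genes and pair 2 the smallest. Over the 6 genes the median log2 difference was -0.96, -0.41 and -1.48 in pairs 1, 2 and 3, and -0.94 in the fit over all pairs, where the median over all tested genes was 0.00. Of the 6 genes, 5 were lower in all 3 pairs (11.3% of all tested genes were) and 2, Laptm5 and Coro1a, had every high glucose library below every control library (2.10% of all tested genes). None of the 6 passed an adjusted p below 0.05 in edgeR, and 0.0163% of all tested genes did. At an unadjusted p below 0.05, 5 of the 6 lay there (4.82% of all genes). DESeq2 called 2 of the 6, Coro1a and Cd52 (0.863% of all genes). Cd52 also passed in edgeR without a filter, without pair 1 and without pair 3. In those settings 18 of 14522, 18 of 12200 and 55 of 12298 genes passed. Under the other edgeR alternatives none of the 6 did. The counts for the 6 describe genes that were picked on this comparison, and nothing is read from them.

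Together the 6 genes held 0.0592%, 0.0296% and 0.0403% of all counts in the control libraries of pairs 1, 2 and 3, and 0.0354%, 0.0237% and 0.0193% in high glucose. The control mean was 0.0431% ± 0.0150 (SD, n = 3), and the high glucose mean was 0.0261% ± 0.0084. The high glucose share was lower in each pair, and the groups overlapped. In pair 2 both libraries held 5360 counts of these genes, and the control was the shallower library.

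The makeup of the leukocyte RNA differed between dams as well as between horns. Cd52 made up 17.6% of the summed FPKM of the 6 genes in the control library of pair 2, against 4.06% and 1.98% in the controls of pairs 1 and 3. In high glucose its part was 0.568%, 2.64% and 1.57%. Ptprc was the reverse among dams, with 5.34% and 4.75% in the libraries of pair 1 and 1.26% and 1.44% in those of pair 2. The ratio of Cd52 to Ptprc FPKM was thus 0.760, 14.0 and 0.771 in control and 0.120, 1.83 and 0.745 in high glucose. Pair 3 kept this ratio nearly level between horns, whereas pairs 1 and 2 did not. The part held by Lcp1 was larger in high glucose in each pair, at 40.0% against 27.99%, 22.5% against 15.2% and 46.4% against 38.2%. The 6 genes therefore did not move in 1 fixed proportion.

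**Figure D2:**
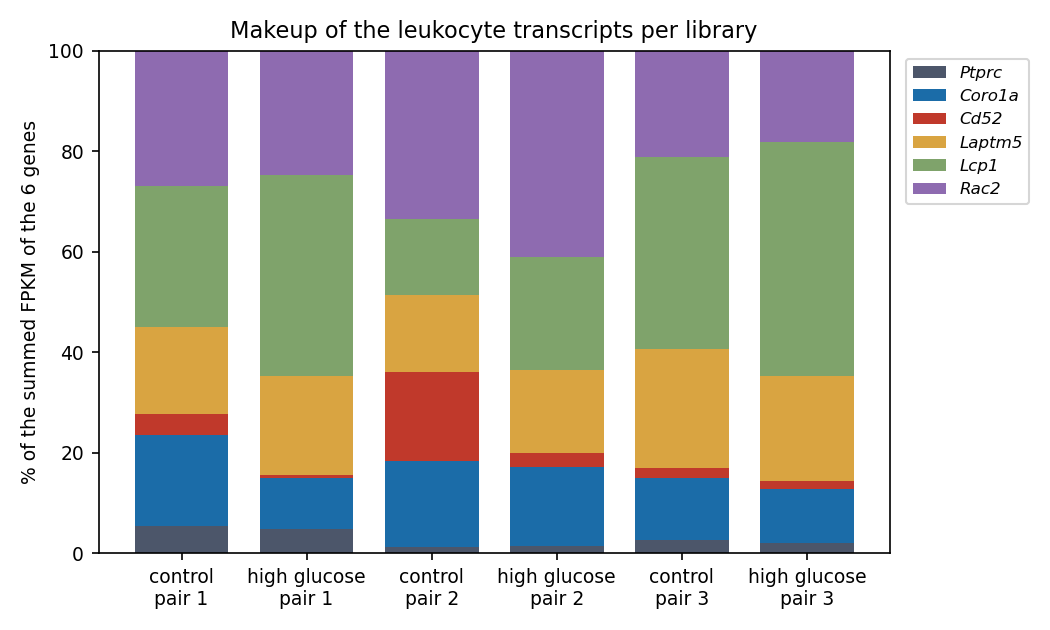
Stacked bars of the percentage of the summed FPKM that each of the 6 leukocyte genes held in each library. Cd52 takes 17.6% in the control library of pair 2 and at most 4.06% in any other library, and Lcp1 takes more in high glucose than in control in each pair.

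Coro1a lay closest to the common pattern and Cd52 farthest from it. Closeness was the root mean square distance over 6 libraries between a gene's log2 CPM, centred on its own mean, and that of the other members. It was 0.23 for Coro1a, 0.42 for Laptm5, 0.46 for Rac2, 0.81 for Lcp1, 0.94 for Ptprc and 1.56 for Cd52. Outside the list, 11500 genes with a mean count of at least 20 were ranked by their distance to the mean pattern of the 6, which was 0.82 for the median gene. These ranks share the contrast on which the 6 were picked, so the nearest genes are a description only.

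The nearest gene was F2rl2, a thrombin receptor subunit (distance 0.14). Rasal3 (0.16), a Ras GTPase-activating protein of lymphocytes, Fmnl1 (0.20), a formin of leukocytes, and Myo1g (0.24), a myosin of leukocyte membranes, were among the nearest 8. The others were Clec4a1 (0.21), a C-type lectin receptor, Dpep2 (0.23), a membrane dipeptidase, Tlx1 (0.25), a homeobox gene required for spleen formation, and Tmem140 (0.26). Fmnl1 measured 26.8, 15.3 and 13.0 CPM in control and 11.7, 8.84 and 5.98 CPM in high glucose. Tlx1 measured 15.2, 16.5 and 12.7 CPM in control and 5.88, 6.30 and 3.83 CPM in high glucose. None of these 8 genes passed in edgeR, with adjusted p-values between 0.160 and 0.851.

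**Figure D3:**
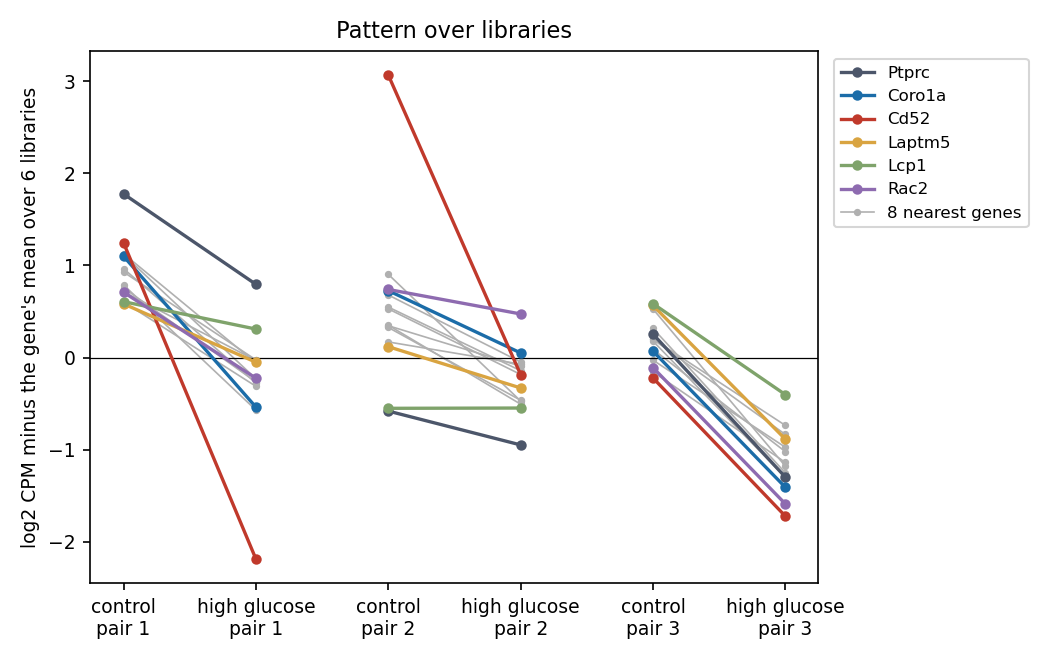
Log2 CPM of each leukocyte gene (coloured) and of the 8 nearest genes (grey) minus the gene's mean over the 6 libraries, with lines joining the libraries of 1 dam. Cd52 has the widest range, and the grey lines all slope down.

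Relatives of the 6 genes, their paralogs, had a median difference near 0 and lay on both sides of it. Of 16 listed paralogs 14 were in the files and 13 were tested. None passed in edgeR or in DESeq2, and 1, the receptor phosphatase gene Ptprk, lay at an unadjusted p below 0.05. Their median log2 difference was -0.01, with 2 lower in all 3 pairs and 4 higher (11.7% of all tested genes were higher in all 3). The sign of that median turned with RLE factors and DESeq2 (0.00), without the block (0.01) and without pair 3 (0.16).

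Rac1, the widely expressed relative of Rac2, was at 338 FPKM on average, with log2 differences of -0.12, 0.39 and -0.17 in the pairs and 0.04 in the fit. Pls3 and Pls1, the plastins of solid tissues and of epithelia, had fitted differences of 0.03 and -0.12 beside -0.43 for Lcp1. Laptm4a and Laptm4b, lysosomal relatives of Laptm5, were at 483 and 106 FPKM on average, with fitted differences of -0.02 and -0.05. The coronins Coro1b, Coro1c, Coro7 and Coro6 had fitted differences of -0.30, -0.17, -0.23 and 0.83, and Coro1b and Coro7 were lower in all 3 pairs. Coro6 had no more than 13 counts in any library. Coro2a did not pass the filter, with 526 counts in the control library of pair 1 and 3 to 14 in the others. The receptor phosphatases Ptpra, Ptprj, Ptprk and Ptprm had fitted differences of 0.14, 0.35, 0.48 and -0.01. Counting kept only pairs with a mapping quality of at least 10, so reads shared by near-identical copies were left out.

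**Figure D4:**
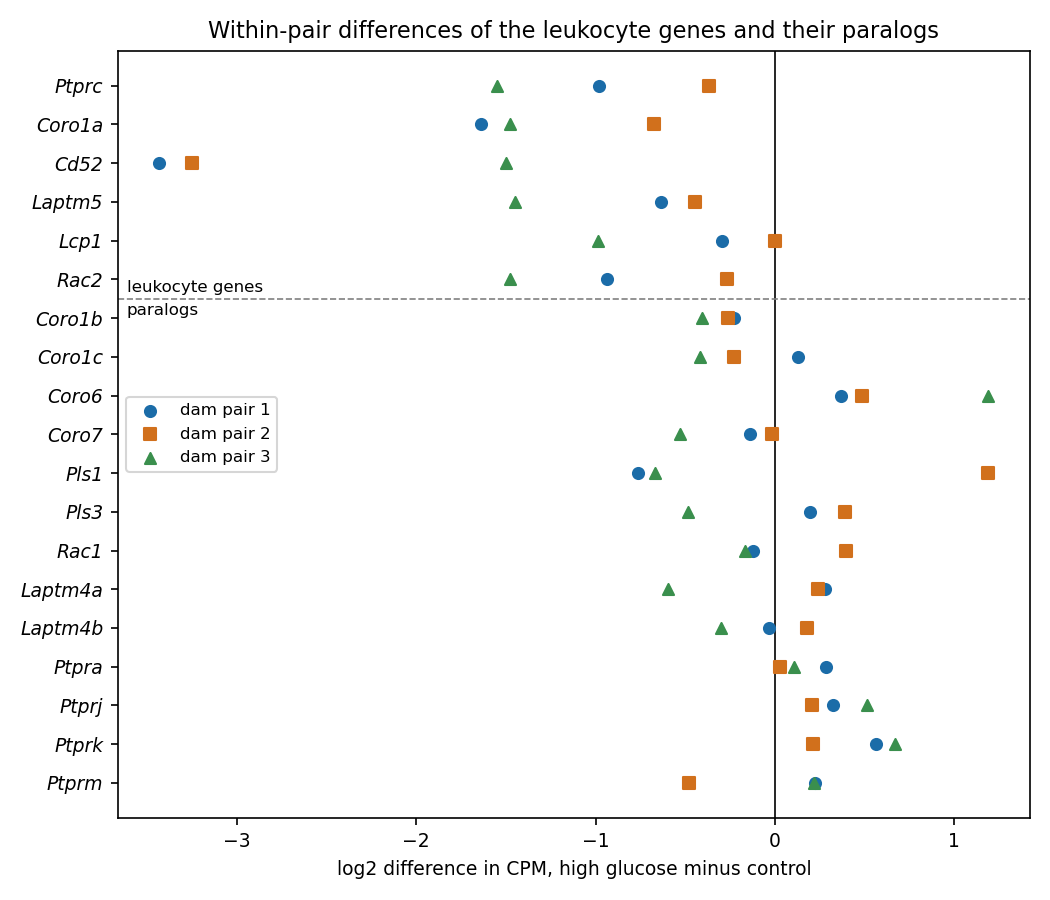
Log2 difference in CPM, high glucose minus control, within each dam for the 6 leukocyte genes (above the dashed line) and 13 tested paralogs (below it). The leukocyte genes lie left of 0 except Lcp1 in pair 2, and the paralogs lie on both sides of 0.

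A list of other genes taken as general to leukocytes had mostly negative differences, none of which passed the test. Not all of them mark every leukocyte type, and Cd37 is also in the B cell list below. All 20 genes of this list were tested, and their median log2 difference was -0.77, with 15 lower in all 3 pairs and 0 higher. By edgeR 0 of 20 passed, 14 lay at an unadjusted p below 0.05, and DESeq2 called 0. The median was -0.57, -0.29 and -1.08 in pairs 1 to 3, the order of size seen for the 6 genes. Fcer1g and Tyrobp, adaptors that carry signals from activating receptors, had the highest levels, at 144 and 132 FPKM on average. Their fitted log2 differences were -0.47 (edgeR adjusted p = 0.9996) and -0.59 (edgeR adjusted p = 0.85). Cd48, an adhesion molecule on blood cells, came next at 87.8 FPKM, with log2 differences of 0.44, -0.36 and -0.49 in the pairs.

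Signalling genes that work with CD45 had a median of -0.62 over 25 genes. Of these, 16 were lower in all 3 pairs and 0 higher. None passed in edgeR, 13 lay at an unadjusted p below 0.05, and DESeq2 called 1. The most abundant, which many cell types express, had differences near 0: Csk -0.07, Fyn -0.03 and Skap2 0.01. Csk opposes CD45 at Src-family kinases, and Fyn is one of those kinases. The gene called by DESeq2 was Ptprcap, which encodes a protein bound to CD45, and it is singled out here after its values were seen. It had 348, 89 and 28 counts in control and 24, 36 and 5 in high glucose, and a fitted log2 difference of -2.66 (edgeR adjusted p = 0.23).

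Regulators and effectors of Rac2 had a median of -0.18 over 23 tested genes. Of these, 10 were lower in all 3 pairs, none passed in edgeR, 7 lay at an unadjusted p below 0.05, and DESeq2 called 1. Cyba, the small membrane subunit of the NADPH oxidase, had a fitted log2 difference of -0.38 (edgeR adjusted p = 0.9996). The gene called by DESeq2 was Cybb, the catalytic subunit of that oxidase, singled out after its values were seen. It had 1523, 86 and 436 counts in control and 569, 62 and 164 in high glucose, with a fitted log2 difference of -1.24 (edgeR adjusted p = 0.23). Integrins and their actin partners had a median of -0.13 over 21 genes, with 5 lower and 1 higher in all 3 pairs. None passed in edgeR, 3 lay at an unadjusted p below 0.05, and DESeq2 called 1, Itgal, a leukocyte integrin subunit. The most abundant actin genes, Pfn1, Cfl1 and Arpc2, had fitted differences of -0.27, -0.04 and 0.06.

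Transcription factors of blood cells, red cells included, had a median of -0.59 over 17 tested genes, with 11 lower in all 3 pairs and 1 higher. None passed in edgeR, 8 lay at an unadjusted p below 0.05, and DESeq2 called 3. Ets1 and Runx1, both also expressed outside blood, were the most abundant, with fitted differences of -0.12 and 0.47. Spi1, which encodes PU.1, had 1717, 692 and 1211 counts in control and 1204, 755 and 510 in high glucose. Its fitted log2 difference was -0.66 (edgeR adjusted p = 0.89), with -0.39, -0.22 and -1.37 in pairs 1 to 3. Gata1 was listed at 0 in every library. These lists share some genes with each other, such as Vav1, Ptpn6 and Ikzf1, and Klf1 is also in the red cell list below. They are therefore not separate evidence.

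Markers of single leukocyte types showed which RNAs accompanied the 6 genes. Macrophage markers were abundant. Their summed level was 863 to 1196 CPM in control and 515 to 999 CPM in high glucose over 19 of 20 listed genes, none at 0 throughout. The most abundant were the complement genes C1qa, C1qc and C1qb, made by tissue macrophages, at 150, 142 and 123.6 FPKM on average. Their fitted differences were -0.67, -0.80 and -0.65 (edgeR adjusted p = 0.60, 0.55 and 0.68). Mrc1 and Trem2, singled out after their values were seen, were the only tested markers with positive fitted differences, at 0.35 and 0.04. Over 17 tested markers the median was -0.41, and -0.14 without pair 3. Of the 17, 7 were lower in all 3 pairs and none passed in edgeR, with 7 at an unadjusted p below 0.05 and 0 called by DESeq2.

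Lymphocyte markers were scarce. The T and NK cell list summed to 22.2 to 112 CPM in control and 18.1 to 56.9 in high glucose over 21 of 22 genes, and most of it came from Il7r and Cd4, which rat macrophages or other cells can also express. The T cell receptor gene Cd3e had 41, 1 and 0 counts in control and 2, 1 and 1 in high glucose. The B cell list summed to 25.1 to 53.1 CPM in control and 20.2 to 40.9 in high glucose over 15 of 16 genes. Much of it came from Ebf1, which stromal cells also express, with 674, 359 and 470 counts in control and 1164, 295 and 525 in high glucose. Cd79b, a B cell receptor subunit, had 289, 19 and 15 counts in control and 4, 11 and 17 in high glucose. Vpreb3 was listed at 0 throughout. A listed 0 may not mean absent RNA in these files, since Robo4, an endothelial gene, was also at 0, and Col1a2 had at most 12 counts where Col1a1 had at least 223391. In both lists the control library of pair 1 was highest. Median differences were -0.74 over 9 tested T and NK genes (5 lower in all 3 pairs) and -1.48 over 6 tested B cell genes (3 lower), the latter -0.93 without pair 1. None passed in edgeR or in DESeq2, and 4 and 3 lay at an unadjusted p below 0.05. Cd22, singled out after its values were seen, passed the filter on low counts only through the control libraries. The B cell median thus rests in part on such a gene.

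Neutrophil and red cell markers had the lowest medians, at -2.30 over 10 and -3.66 over 11 tested genes. Without pair 1 they were -1.42 and -2.42, over the genes that passed the filter in that fit, which can be fewer. In each list edgeR called 1 gene, Np4, a defensin (adjusted p = 0.000246), and Car1, a carbonic anhydrase of red cells (adjusted p = 0.000793). Np4 had 23 to 1206 counts in control and 2, 0 and 0 in high glucose. Car1 had 655, 7 and 212 counts in control and 4, 0 and 1 in high glucose. Both passed the filter on low counts only through the control libraries, so nothing is read from these calls. The medians of these lists cover only genes that passed this filter. Reads that Np4 shares with near-identical defensin genes would have been left out of the counts. S100a9, a calcium-binding protein of neutrophils, had log2 differences of -5.90, 0.59 and -5.19 in pairs 1 to 3. Of the neutrophil genes 5 were lower and 1 higher in all 3 pairs, 6 lay at an unadjusted p below 0.05, and DESeq2 called 3. The granule genes Mpo and Elane had 387 and 93 counts in the control library of pair 1 and at most 7 and 1 elsewhere, and Ltf was listed at 0 throughout. The one higher was Lcn2, which epithelial cells also make. The neutrophil list summed to 386 to 811 CPM in control and 243 to 1234 in high glucose. Lcn2 made up most of this sum except in the control library of pair 1. There it had 3615 counts, beside 2861 of S100a9 and 2576 of Mmp9. Red cell genes summed to 588 to 1850 CPM in control and 218 to 680 in high glucose, and 9 of 11 were lower in all 3 pairs. Of the 11, 7 lay at an unadjusted p below 0.05, and DESeq2 called 8 (0.863% of all genes). Red cell medians were -5.35, -1.23 and -3.50 in pairs 1, 2 and 3, beside -0.96, -0.41 and -1.48 for the 6 leukocyte genes, so pair 2 had the smallest in both. The mast cell list had a median of -1.02 over 8 genes, and -0.48 without pair 2. None of the 8 passed in edgeR, 2 lay at an unadjusted p below 0.05, and DESeq2 called 1. Its most abundant genes, Il1rl1 and Kit, receptors that other cells also express, had fitted differences of -0.10 and 0.23, and Mcpt2, a granule protease, -1.37 (edgeR adjusted p = 0.32). Only Pf4 was tested among platelet genes, at -0.10 and a mean of 226 FPKM. The next highest gene of that list, Gp9, averaged 0.58 FPKM, with 55, 0 and 2 counts in control and 6, 2 and 1 in high glucose. Pf4 alone therefore does not show platelet RNA to be level. The part of each of these cell types in the differences of the 6 genes was not tested.

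Lists of pancreatic and stromal cells also differed between the pairs. Endocrine genes had medians of 0.77, -0.25 and -1.55 in pairs 1, 2 and 3, acinar genes -0.38, 0.51 and 3.80, and duct genes 1.29, 0.28 and 0.76. Endothelial genes, a source of RNA from vessels, had -0.06, -1.22 and -0.08. Mesenchyme genes had 0.53, -0.31 and -0.57. In pair 3 the high glucose library was thus lower than its control in endocrine as well as leukocyte RNA and higher in acinar RNA. Whether this shift in makeup contributed to the leukocyte values of pair 3 was not tested.

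**Figure D5:**
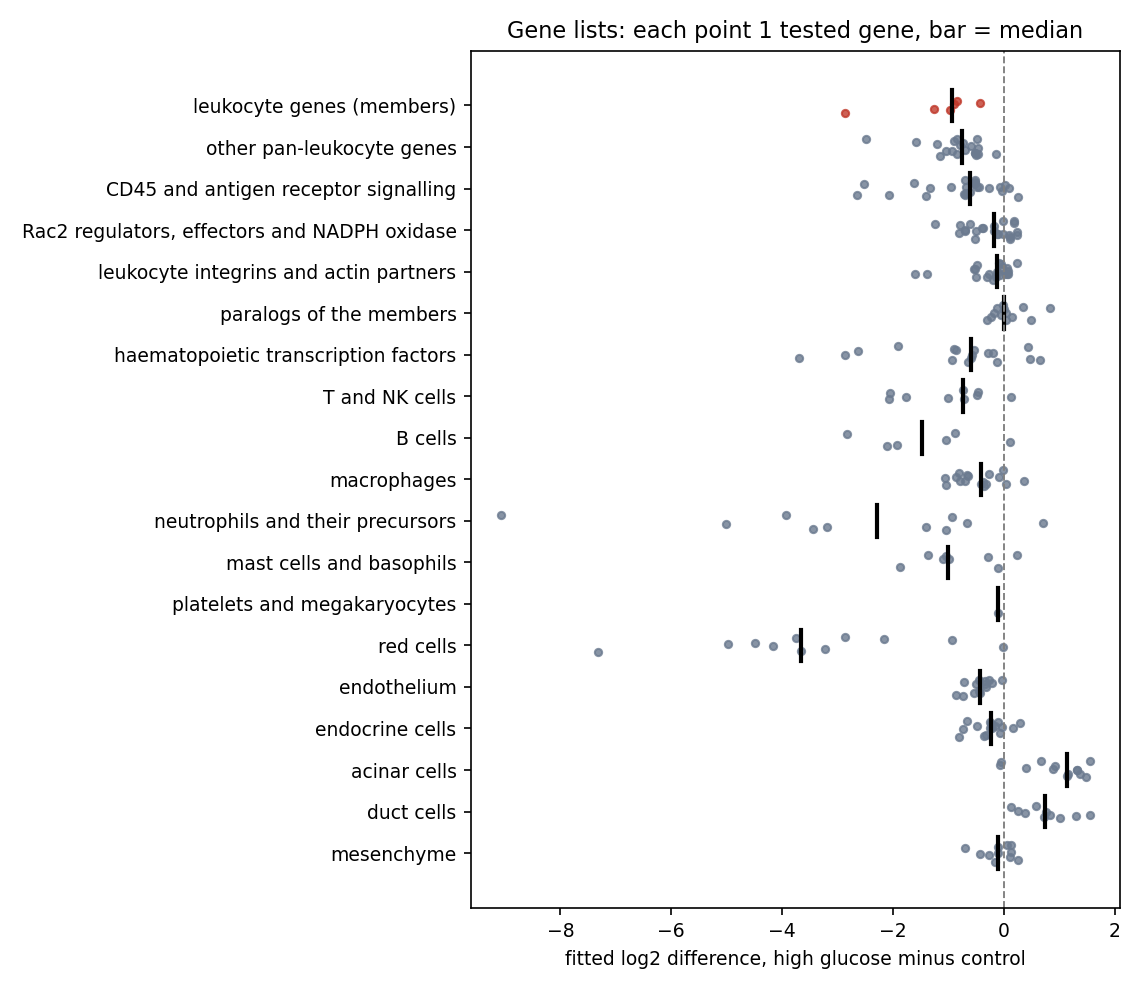
Fitted log2 difference, high glucose minus control, of each tested gene in the 6 leukocyte genes (red) and in the other lists (grey), with black bars at the medians and a dashed line at the median of all tested genes. The leukocyte genes have a median of -0.94 and the paralogs -0.01. Fitted values of genes with few counts, such as the lowest neutrophil and red cell points, depend on the prior count.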

How the data were processed

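RNA was sequenced in 6 libraries of fetal rat islets. Unnormalized pair counts for each gene were deposited, made with featureCounts, per the file headers, in version 1.5.1 (paired reads, strand setting 2, mapping quality of at least 10, rn6 refGene). STAR 2.5 and edgeR 3.12.1 are named in the submitters' processing notes, which also list mm10. Counts were fitted over all genes with edgeR 4.0.16 in R 4.3.3 (TMM factors, filterByExpr, quasi-likelihood F-test with robust dispersions, a block for the dam, Benjamini-Hochberg adjustment, threshold 0.05). The filter kept 12276 genes with 99.95% of counts. DESeq2 1.42.0 was an alternative. Fits without 1 pair filtered genes anew, so list medians from them need not cover the same genes. The SE is the log2 difference divided by the root of F. Values per pair use log2 CPM with a prior count of 2. FPKM used the deposited exonic lengths. Ratio intervals are exact conditional 95% intervals.

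Pairs come from the shared stem of the sample titles and the series design. Deviations from group means correlated at 0.372, 0.544 and 0.392 within dams and between -0.409 and 0.008 across dams. No replicate counts agreed within sampling noise. The procedure was tested on simulated data without differences between dams, so that check does not cover the pairing. The 6 genes and all lists were chosen with earlier results of these data known. Named genes were the 6 genes, their paralogs, up to 3 genes per list by mean FPKM or past the threshold, and the 8 nearest in pattern. Genes singled out otherwise are marked or serve as defining markers. Some genes that this rule names are not reported here.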

Additional observations from a re-analysis of the deposited data

How the results depend on the processing

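The log2 differences of the 6 genes kept their sign under all 10 alternatives, and their median lay between -1.24 (without pair 2) and -0.64 (without pair 3). Lcp1 moved most in proportion, from -0.43 to -0.15 without pair 3. The mean difference in the share of counts was -0.0169 percentage points, and -0.0224 to -0.0135 with 1 pair left out. The number of genes called over all genes was unstable. It was 2 with the block and 0 with no replicate block, where 192 genes lay at an unadjusted p below 0.05, and the paired fit was the main one because the design pairs the horns. It was 4 with upper-quartile factors, 18 with no filter, 5 when the mean count had to reach 50, 106 with DESeq2 (21 higher, 85 lower) and 1 without acinar and red cell genes, since Car1 was then not tested. It ranged from 18 to 55 without 1 pair. Depth limits Cd52, with 13 to 38 counts in high glucose, and the lymphocyte and platelet markers, of which 9 of 21, 6 of 15 and 1 of 7 (T and NK, B, platelets) passed the filter.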
